A study of Mus musculus with 4 samples.

Results

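Chromatin immunoprecipitation followed by sequencing (ChIP-seq) mapped where 3 transcription factors sit on the genome of a mouse pancreatic beta cell line, and the regions described here are those where the site lists of Insm1, Neurod1 and Foxa2 overlap. Sites of the 3 lists were merged into union regions wherever they shared at least 1 bp, and a union region holding at least 1 site of every list was taken as a triple region. Members were thus chosen by the called intervals of the 3 lists, and not by their scores. There were 6665 triple regions among 39412 union regions (16.9%, 95% Wilson interval 16.5 to 17.3%). The Insm1, Neurod1 and Foxa2 pull-downs were each 1 sample and 1 site list, of 17453, 14607 and 28379 sites, and the IgG pull-down was not analysed here. The series' design text counts 6 samples and names replicates for Insm1 and Foxa2, and how these entered the 2 lists is not stated. All came from the same untreated line, which was established from islets of RIP1-Tag2 transgenic mice at 6 weeks of age, on a background that mixes C57BL/6, 129/ola and CBA/J. The cells were used at passages 10 to 15 and grown in 25 mmol/l glucose with 15% fetal bovine serum. Beta cells of RIP1-Tag2 mice express a viral oncogene under control of an insulin promoter, so the line is transformed. With 1 sample a group, no difference could be set against a spread between replicates, and intervals cover counting error only, with regions treated as independent.

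Insm1, a zinc finger protein found in endocrine cells and neurons, carries a SNAG domain through which it recruits co-repressor complexes. Neurod1, of the basic helix-loop-helix family, binds E-box DNA as a dimer with E proteins, and is needed for insulin gene expression and beta cell maturity. Foxa2 is a forkhead factor of endoderm-derived tissues that can bind its DNA motif on nucleosomes and open compact chromatin for other factors. Enhancers commonly hold several such factors close together, and the title of the series asks about cooperation of Insm1 with both partners. The deposited files give positions on the mm9 build with no gene names, and an mm9 genome or gene annotation was not used here. Regions are therefore given by position, with neither their genes nor their DNA sequence, and no motif was searched.

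Every triple region was built in the same way, from exactly 1 Insm1, 1 Neurod1 and 1 Foxa2 site. None of the 6665 held a second site of any factor, and sites of the same list were never closer than 345 bp in the Insm1 list, 403 bp in the Neurod1 list and 405 bp in the Foxa2 list. Triple regions accounted for 38.2% of the Insm1 list, 45.6% of the Neurod1 list and 23.5% of the Foxa2 list. Their median width was 248 bp, with 80% between 192 and 350 bp. Together they covered 1.74 Mb, or 22.2% of the 7.83 Mb in all union regions. The site of Insm1 had a median width of 192 bp in triple regions, that of Neurod1 164 bp and that of Foxa2 212 bp. A single site reached from one end of the region to the other in 2165 regions, and that site was the Foxa2 one in 1566 of them.

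The 3 sites of a triple region largely covered the same bases. A median of 136 bp was common to all 3 sites, with quartiles of 99 and 160 bp, and 4977 regions (74.7%, 73.6 to 75.7%) had at least 100 common bases. The common bases made up 49.5% of the length of all triple regions. The largest common stretch, 344 bp, was in a region of 442 bp on chr1:129473573-129474015. The widest triple region, on chr2:132549602-132550303, was 701 bp long because of its Foxa2 site, and its 3 sites shared 219 bp. In 117 regions (1.76%, 1.47 to 2.1%) no base was common to all 3, and the sites were linked as a chain. The unlinked pair was Neurod1 and Foxa2 in 75 of these chains, so that the Insm1 site joined them, Insm1 and Neurod1 in 29, and Insm1 and Foxa2 in 13.

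Few regions lay near the limit of the 1 bp rule. In 10 triple regions the weaker of the overlaps that held the 3 sites together was at most 10 bp, and in 98 it was at most 50 bp. One with a link of a single base was on chr1:64272749-64273108, where an Insm1 site scoring 137 shared 1 bp with a Neurod1 site scoring 90. Its Foxa2 site, of 56 bp with a score of 25, lay inside the Insm1 site and did not meet the Neurod1 site. The 10 regions just inside had a median score percentile of 45.7 for Insm1, 47.9 for Neurod1 and 48.6 for Foxa2 within their lists. On the other side of the limit, 97 of the 7697 regions with only a pair of factors had a site of the missing factor within 50 bp. In 54 of them the missing factor was Foxa2, which is 1.83% of the 2957 regions with Insm1 and Neurod1. In 27 it was Neurod1, which is 0.85% of the 3164 regions with Insm1 and Foxa2. In 16 it was Insm1, which is 1.02% of the 1576 regions with Neurod1 and Foxa2. The closest miss was on chr14:119174108-119174310, where an Insm1 and a Neurod1 site touched a Foxa2 site with no base between them.

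Triple regions drew on the strong end of each list more than on the weak end, without being limited to it. Each site carries the authors' score, a whole number that the sources used here do not define, so it is expressed as a percentile within its own list, 100 being the strongest. Scores come from the same site calls that chose the members and are a description with no test. In triple regions the Insm1 score ranged from 76 to 3005 with a median of 168, the Neurod1 score from 46 to 1523 with a median of 89, and the Foxa2 score from 19 to 1120 with a median of 85. The lowest of these values are also the lowest of the whole lists, so triple regions reached down to the weakest called sites of every factor. At the top, the highest Insm1 and Neurod1 scores of triple regions had ranks 2 and 1 in their lists. The highest Foxa2 score of triple regions, 1120, had rank 21, and the whole Foxa2 list reached 404994. The median percentile was 70.3 for Insm1, 64.6 for Neurod1 and 78.6 for Foxa2, where a whole list has 50. Percentiles depend on list length: after cutting each list to its 14607 highest scores, as the shortest has, the medians were 70.5 for Insm1, 69.0 for Neurod1 and 71.1 for Foxa2 in the 5036 triple regions left. This use of shortened lists was added once the values were known, and the shares by decile below are of the lists as deposited. The strongest decile of the Foxa2 list supplied 28.4% of the triple regions and its weakest decile 2.64%. For Insm1 the corresponding shares were 19.7% and 3.11%, and for Neurod1 they were 16.8% and 6.08%, the flattest of the 3 profiles. Seen from the lists, 75.5% of the strongest Insm1 decile, 76.2% of the strongest Neurod1 decile and 66.7% of the strongest Foxa2 decile were in triple regions. In the weakest deciles the shares were 12.3% for Insm1, 24.8% for Neurod1 and 7.12% for Foxa2.

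**Figure D1:**
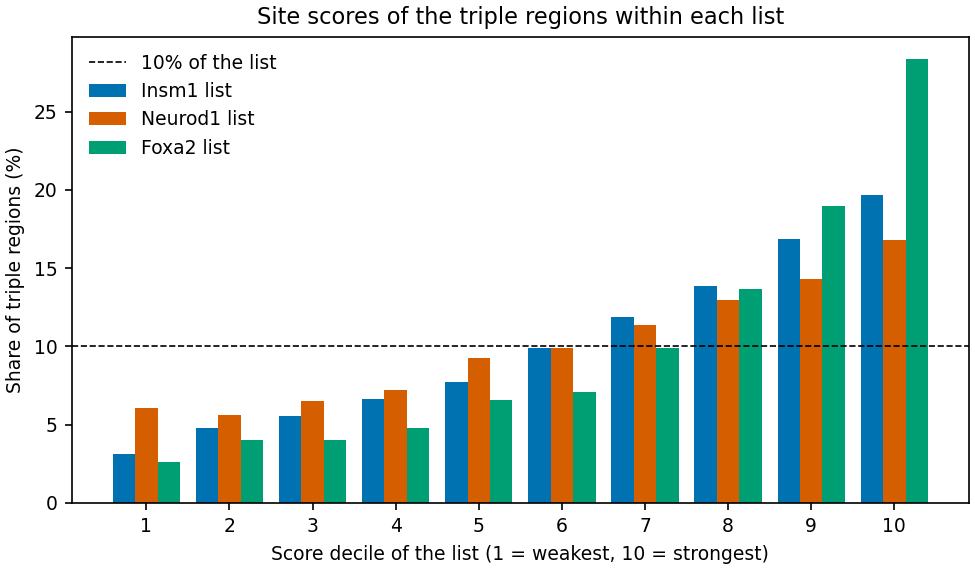
Share of the 6665 triple regions (y axis, percent) whose site falls in each score decile of its own list (x axis, 1 weakest to 10 strongest), as bars for the Insm1, Neurod1 and Foxa2 lists. The dashed line marks 10%, and the strongest decile holds 19.7% of triple regions for Insm1, 16.8% for Neurod1 and 28.4% for Foxa2.

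The pair regions, which hold 2 of the 3 factors, had lower percentiles for the factors they share with triple regions. The median Insm1 percentile was 70.3 in triple regions, 56.1 in the 2957 regions with Insm1 and Neurod1 and 36.7 in the 3164 regions with Insm1 and Foxa2. The median Neurod1 percentile was 64.6 in triple regions, 45.9 with Insm1 and 33.3 in the 1576 regions with Neurod1 and Foxa2. The median Foxa2 percentile was 78.6 in triple regions, 63.9 with Insm1 and 55.7 with Neurod1. The whole ranges overlapped in each case. Widths moved with these classes too: the Neurod1 site had a median width of 164 bp in triple regions, 139 bp in regions with Insm1 and 142 bp in regions with Foxa2. The part of width in the score differences was not tested.

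The 3 sites of a triple region often differed in strength, and fell in the same score quintile of their lists in 1173 regions (17.6%, 16.7 to 18.5%). All 3 sites scored above the median of their lists in 2977 regions (44.7%, 43.5 to 45.9%), and no site did in 358 (5.37%, 4.86 to 5.94%). The commonest uneven pattern was a Neurod1 site not above its median beside strong Insm1 and Foxa2 sites, in 943 regions. Next came Foxa2 as the only strong site, in 743 regions, while Insm1 was the only strong site in 268 and Neurod1 in 260. Foxa2 had the highest of the 3 percentiles in 3231 regions (48.5%), Insm1 in 1806 (27.1%) and Neurod1 in 1628 (24.4%). Neurod1 had the lowest in 2785 (41.8%). The Foxa2 list is the longest, and with lists of equal length the highest percentile was that of Foxa2 in 37.5%, of Insm1 in 30.4% and of Neurod1 in 32.1% of regions, while the lowest was that of Foxa2 in 35.6%, of Insm1 in 31.1% and of Neurod1 in 33.3%. The counts of uneven patterns above were made with the lists as deposited. Between the strongest and the weakest site of a region lay a median of 33.6 percentile points, and over 50 points in 1841 regions (27.6%, 26.6 to 28.7%). At the extreme, the region on chr15:21640539-21640758 combined an Insm1 score of 76, the lowest in its list, with a Neurod1 score of 91 and a Foxa2 score of 375, which is rank 383 of 28379. The weakest region by mean percentile was on chr4:126500238-126500516, with scores of 84 for Insm1, 46 for Neurod1 and 21 for Foxa2.

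All 3 sites were in the strongest decile of their lists in 372 regions (5.58%, 5.06 to 6.16%), exactly 2 in 711, exactly 1 in 1783 and none in 3799 (57.0%). By score quintile, 958 regions had 3 sites in the strongest quintile, and 13 had 3 sites in the weakest. These counts follow in part from the larger share of strong sites that each list has in triple regions, given above.

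Insm1 strength varied with both partners, and Neurod1 strength varied with Insm1 more than with Foxa2. Across the 6665 triple regions, which share the 3 libraries and their thresholds, the rank correlation of scores was 0.51 for Insm1 and Neurod1, 0.34 for Insm1 and Foxa2, and 0.25 for Neurod1 and Foxa2. With the remaining factor held constant by partial rank correlation, the values were 0.47 for Insm1 and Neurod1, 0.26 for Insm1 and Foxa2 and 0.09 for Neurod1 and Foxa2. The last of these is weak. The same order appears when regions are sorted by score quintile. Where Neurod1 and Foxa2 were both in their strongest quintile, the median Insm1 percentile was 90.3 (1283 regions), and where both were in their weakest it was 47.5 (78 regions). With Neurod1 in its weakest quintile and Foxa2 in its strongest, it was 51.0 (269 regions). With Neurod1 strongest and Foxa2 weakest it was 73.8 (88 regions). For Neurod1, the strongest Foxa2 quintile went with a median Neurod1 percentile of 86.3 where Insm1 was also in its strongest quintile (1569 regions), but with 31.6 where Insm1 was in its weakest (130 regions). Where Insm1 and Foxa2 were both weakest, the median Neurod1 percentile was 43.3 (52 regions). Foxa2 varied least, between medians of 55.7 (21 regions) with weak Insm1 and strong Neurod1 and 90.4 (1353 regions) with both strongest. These percentiles and quintiles are of the lists as deposited, of which the Foxa2 list is the longest. The part of list length in the smaller range of Foxa2 was not tested.

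**Figure D2:**
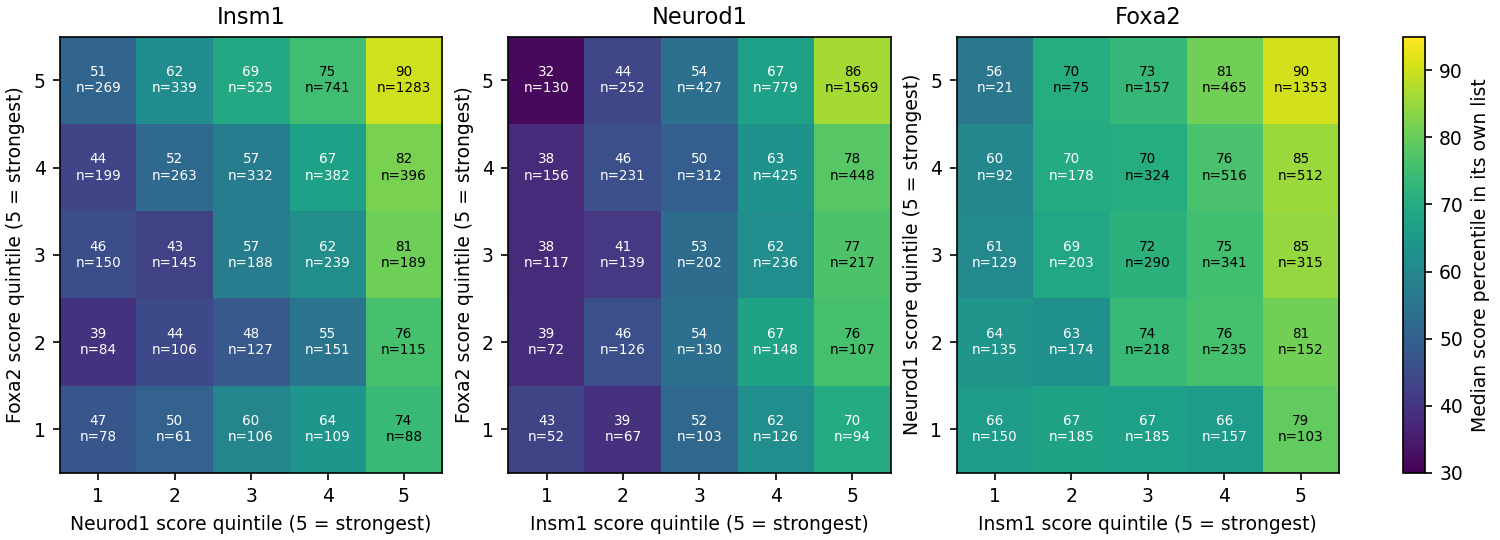
Median score percentile of Insm1, Neurod1 and Foxa2 (one panel each, colour and upper number) in triple regions sorted by the score quintiles of the other factors on the x and y axes, where 5 is the strongest. The number of regions is printed in each square, and the top right squares have medians of 90.3 for Insm1, 86.3 for Neurod1 and 90.4 for Foxa2.

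The 10 strongest triple regions by mean percentile, among those whose 3 sites were all wider than 60 bp, ranked within the first 145 Insm1 sites, 248 Neurod1 sites and 317 Foxa2 sites. First was chr4:149513243-149513445, with scores of 1225 for Insm1, 1035 for Neurod1 and 724 for Foxa2 (ranks 12, 6 and 63), 153 common bases and summits within 53 bp. The next was chr3:31943613-31943798, with scores of 852, 841 and 972 for Insm1, Neurod1 and Foxa2 (ranks 42, 10 and 30) and summits within 30 bp. At chr5:23584729-23584935 the Insm1 score was 964, the Neurod1 score 956 and the Foxa2 score 618, with summits within 34 bp. In each of these 3 regions the percentiles of the factors differed by at most 0.273 points. Choice by the highest mean percentile keeps such differences small. The region on chr1:64627030-64627295 had an Insm1 score of 1256 and a Neurod1 score of 979, ranks 11 and 7, beside a Foxa2 score of 453 at rank 221. On chr11:107623520-107623668 the scores were 825 for Insm1, 688 for Neurod1 and 491 for Foxa2, with summits within 18 bp. On chr1:85284660-85284849 they were 619, 700 and 690 for Insm1, Neurod1 and Foxa2, with summits within 2 bp. The Neurod1 and Foxa2 sites of that region were narrow, 96 and 95 bp. The other four, on chr3:152157682-152157906, chr4:12582572-12582833, chr7:6836183-6836428 and chr16:69980199-69980503, each had a mean percentile of 99.4. The region on chromosome 7 had narrow Insm1 and Neurod1 sites, of 91 and 95 bp, and summits within 2 bp. The region on chromosome 16 had the highest Foxa2 score of any triple region, 1120, at rank 21 of the Foxa2 list. Its Insm1 site was at rank 24 and its Neurod1 site at rank 248.

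The triple region with the highest Insm1 score, 3005 on chr7:140799601-140799849, had its Neurod1 site at rank 2485 (percentile 82.9) and its Foxa2 site at rank 1364 (percentile 95.2). Among triple regions with wider sites, the highest Neurod1 score, 1428 on chr10:111106760-111106985, stood beside an Insm1 rank of 81 (percentile 99.5) and a Foxa2 rank of 2045 (percentile 92.8).

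The summit of a site is read as its point of strongest signal, and in triple regions the 3 summits lay close together. The distance between the outermost summits had a median of 65 bp, with quartiles of 36 and 98 bp. All 3 summits lay within 25 bp in 991 regions (14.9%, 14.0 to 15.7%), within 50 bp in 2478 (37.2%, 36.0 to 38.3%) and within 100 bp in 5097 (76.5%, 75.4 to 77.5%). Overlap of sites this narrow limits these distances, so they are a description. In 4587 regions (68.8%, 67.7 to 69.9%) all 3 summits fell on bases common to the 3 sites. The Foxa2 summit fell outside the common bases in 1411 regions, the Insm1 summit in 1070 and the Neurod1 summit in 686.

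Foxa2 was the factor least often in the middle over all triple regions. In the 6432 regions whose 3 summits were at different bases, the middle summit was that of Insm1 in 2432 (37.8%, 36.6 to 39.0%), of Neurod1 in 2319 (36.1%, 34.9 to 37.2%) and of Foxa2 in 1681 (26.1%, 25.1 to 27.2%). The Foxa2 interval does not meet those of Insm1 and Neurod1, which overlap each other. Foxa2 sites were the widest of the 3, with a median of 212 bp, against 192 bp for Insm1 and 164 bp for Neurod1. In the 301 regions whose 3 site widths differed by at most 10%, a setting chosen after seeing the data, the middle summit was that of Insm1 in 37.5% (32.3 to 43.1%), of Neurod1 in 33.9% (28.8 to 39.4%) and of Foxa2 in 28.6% (23.8 to 33.9%). The order of the factors was the same as over all triple regions. These intervals are wide and overlap, so they do not decide whether the Foxa2 share was lower in these 301 regions. A planned setting kept the 1315 regions with separate summits whose 3 sites were in the same width tercile. There the shares were 37.4% for Insm1, 36.5% for Neurod1 and 26.1% for Foxa2. The part of site width in the middle share was not tested.

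**Figure D3:**
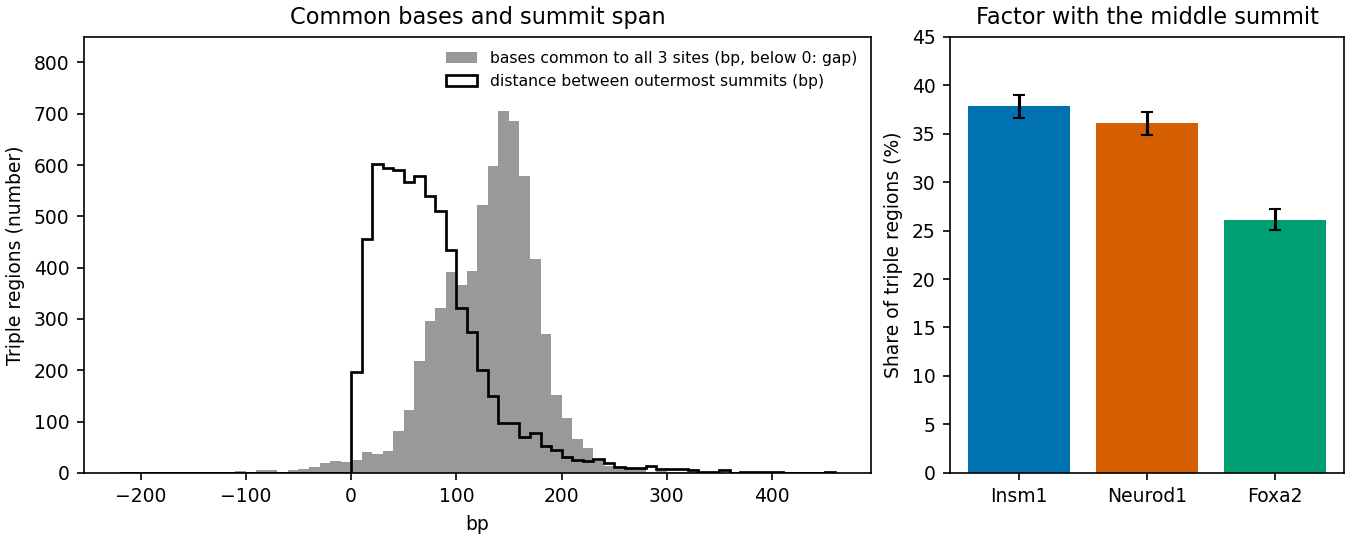
Left, number of triple regions (y axis) by bases common to all 3 sites (grey, bp, negative where none is common) and by distance between the outermost summits (black line, bp), with medians of 136 and 65 bp. Right, share of the 6432 triple regions with separate summits (y axis, percent) in which each factor had the middle summit, with 95% Wilson intervals as bars; Foxa2 stands at 26.1%.

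Stronger triple regions had more bases common to the 3 sites, with summits only slightly closer, and were hardly wider. Over all triple regions, the rank correlation of mean percentile was 0.35 with common bases and -0.07 with summit span. In the strongest quintile by mean percentile, 155 bp were common to the 3 sites at the median and the summits spanned 61 bp, against 112 bp and 70 bp in the weakest quintile. The median region width was 249 bp in the strongest and 246 bp in the weakest quintile. The sites themselves differed in width, with Insm1 at a median of 199 bp, Neurod1 at 177 bp and Foxa2 at 215 bp in the strongest quintile, against 183, 146 and 204 bp for the same factors in the weakest. Chains with no common base numbered 37 of 1333 regions in the weakest quintile, then 22, 19 and 19, and 20 of 1333 in the strongest. The part of site width in these differences was not tested.

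Triple regions rarely had another region within 1 kb, and more of them had another triple region within 50 kb than regions with Insm1 and a single partner did. The nearest other triple region was at a median distance of 59482 bp and never nearer than 1096 bp, while the nearest other union region of any kind was at a median of 9710 bp. Only 95 triple regions (1.43%, 1.17 to 1.74%) had another union region within 1 kb, compared with 14.2% of regions with Insm1 and Neurod1, 6.04% of those with Insm1 and Foxa2 and 8.88% of those with Neurod1 and Foxa2. Features of the lists bear on this contrast. A pair region can have the site of the missing factor beside it, as 402 of the 2957 Insm1 and Neurod1 regions did within 1 kb. Gaps under 1 kb between sites of the same list were few, 38 for Insm1, 65 for Neurod1 and 179 for Foxa2. Any region beside a triple region holds a site of a list already present in it. The few gaps thus limit the share of triple regions with a neighbour within 1 kb, and the contrast is a description.

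Within 50 kb, 3095 triple regions (46.4%, 45.2 to 47.6%) had another triple region. This exceeded the share of 36.8% for regions with Insm1 and Neurod1 by 9.61 points (95% Newcombe interval 7.49 to 11.7) and that of 36.3% for regions with Insm1 and Foxa2 by 10.1 points (8.02 to 12.1). Regions with Neurod1 and Foxa2 had a triple region within 50 kb in 45.2% of cases, and the difference of 1.2 points had an interval of -1.54 to 3.92. Within 10 kb the share was 15.5% (14.7 to 16.4%) for triple regions, 10.96% with Insm1 and Neurod1, 10.97% with Insm1 and Foxa2 and 17.4% with Neurod1 and Foxa2. The triple regions lay above the first 2 classes, by 4.54 points (3.09 to 5.94) and 4.53 points (3.11 to 5.9), and differed from the last by -1.89 points (-4.01 to 0.11). Union regions of any kind were within 50 kb of 90.1% of triple regions, 90.5% of regions with Insm1 and Neurod1, 85.3% with Insm1 and Foxa2 and 89.1% with Neurod1 and Foxa2.

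**Figure D4:**
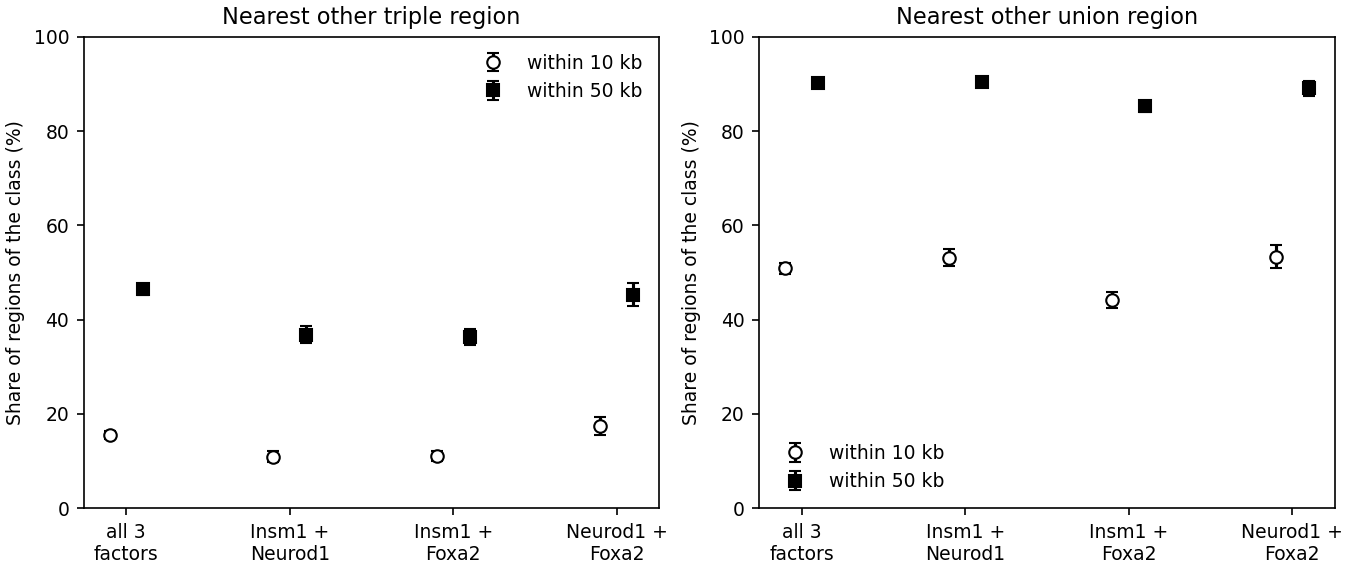
Share of regions (y axis, percent, with 95% Wilson intervals) that have another triple region (left) or any other union region (right) within 10 kb (open circles) or 50 kb (filled squares), for triple regions and the 3 classes of pair regions. On the left, triple regions stand at 15.5% and 46.4%, close to regions with Neurod1 and Foxa2 at 17.4% and 45.2%.

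The 1033 triple regions with another within 10 kb had median percentiles of 74.7 for Insm1, 69.0 for Neurod1 and 80.8 for Foxa2, compared with 69.9, 63.9 and 77.9 for Insm1, Neurod1 and Foxa2 in the 5632 without one. All 3 sites were in the strongest decile in 6.97% of the regions with such a neighbour and in 5.33% of those without. Joined by gaps of at most 10 kb, they formed 437 pairs, 41 runs of 3 and 9 runs of 4, and no longer run. The tightest run of 4 covered 9751 bp on chr3:96359242-96368993 and was of low strength, with a median mean percentile of 40.9. By contrast, the runs of 4 on chr1:40281996-40294066 and chr2:179064832-179079019 had median mean percentiles of 90.9 and 91.4.

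The window of 100 kb with most triple regions held 9 of them, among 14 union regions, over 96276 bp at chr2:147753984-147850260. Its first 3 members lay within 7 kb, and the second and the third had Foxa2 scores of 574 and 375 (percentiles 99.6 and 98.6) beside Insm1 scores of 245 and 218. The fourth had a Foxa2 percentile of 94.6 and an Insm1 percentile of 43.7, with all 3 summits within 9 bp. The sixth and the seventh were led by Neurod1 instead, with Neurod1 scores of 232 and 370 (percentiles 94.98 and 98.7) and Foxa2 scores of 70 and 87. The seventh also had the highest Insm1 score of the window, 400, at percentile 97.0. Foxa2 had the highest percentile in 6 of the 9 members, Neurod1 in 2 and Insm1 in 1. The other 5 regions held Foxa2 alone in 4 cases and Insm1 with Neurod1 in 1.

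**Figure D5:**
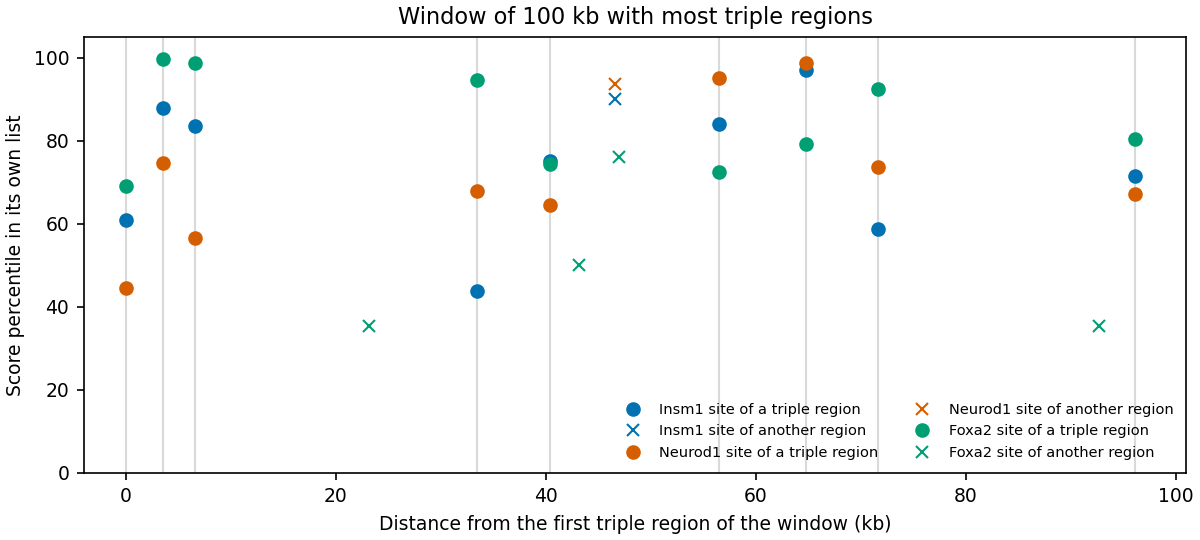
Score percentile in its own list (y axis) of each Insm1, Neurod1 and Foxa2 site along the 100 kb window with most triple regions, by distance from its first triple region in kb (x axis). Circles on vertical lines are the 9 triple regions and crosses are sites of the other 5 union regions; Foxa2 is highest in the second, the third and the fourth triple region and Neurod1 in the sixth and the seventh.

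Triple regions were spread over all autosomes and were a smaller share of regions on the X chromosome. On the autosomes they made up between 16.2% (chromosome 13, 272 of 1676) and 19.4% (chromosome 8, 376 of 1935) of union regions. On X they were 74 of 740 union regions (10.0%, 8.04 to 12.4%), compared with 6591 of 38663 on autosomes (17.0%), a difference of -7.05 points (Newcombe interval -9.04 to -4.65). Regions with Foxa2 alone were 66.1% of union regions on X and 42.6% on autosomes. Among regions that held Insm1 or Neurod1, the triple share was 29.5% on X (74 of 251) and 29.7% on autosomes (6591 of 22184), a difference of -0.23 points (-5.56 to 5.72). X-linked triple regions had a median Insm1 percentile of 50.3, against 70.6 on autosomes. Their median Neurod1 percentile was 64.2, against 65.3 on autosomes, and their median Foxa2 percentile was 74.8, against 78.6 on autosomes. None of the 9 union regions on Y and in the mitochondrial genome was a triple region.

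Very narrow sites, of at most 60 bp, were rare in triple regions. They occurred in 56 of the 6665 (0.84%, 0.648 to 1.09%), with 44 Neurod1, 28 Foxa2 and 17 Insm1 sites. In 16 regions all 3 sites were that narrow. One of them, chrX:100388287-100388339, had the same start and end in all 3 lists and was the only triple region of which that was true. It had the highest mean percentile of all triple regions, with ranks of 3, 1 and 26 for Insm1, Neurod1 and Foxa2. At others the scores were far apart, as on chr17:6397930-6397987, with an Insm1 score of 547 at rank 180, a Neurod1 score of 72 and a Foxa2 score of 21. Binding cannot be told apart from stacks of reads at these 16 regions.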

How the data were processed

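The mm9 build, CASAVA, Bowtie 0.12.7 and MACS 1.4 are named, with no role, per the submitters' processing notes. For settings, site threshold, control, filters and pooling of repeats, details are not given in the sources used. The authors deposited a site list per factor without header: chromosome, start, end, an inner position, read as the summit, and a whole-number score. The score was used only as a percentile (mid-rank) within its list. Read depth is unknown. Positions are given as deposited and were treated as half-open intervals.

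Sites were merged as described, and the best-scoring site per factor was used, although each region held only 1. Shares carry Wilson intervals and differences Newcombe intervals, both at 95%. The members, lists and measures were chosen with earlier results of these data known. Named regions are the 10 with the highest mean percentile and sites over 60 bp, the top region of each list, the widest, and the densest run and window. Regions named for the most common bases, smallest link, closest miss, lowest mean, largest range, narrow sites or further runs were chosen after their values were seen. Planned comparisons with genes, transcription starts and motifs were left out, as no mm9 genome was used. The scripts were tested on simulated lists. Python 3.11.15, numpy 2.4.6, pandas 2.3.3, scipy 1.17.1 and matplotlib 3.10.9 were used.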

Additional observations from a re-analysis of the deposited data

How the results depend on the processing

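Of 54 alternative values for 16 results, 37 counts or values were close to the main one (within 1.5 times, or inside its interval), and 17 were not. The number of triple regions was 6201 with an overlap of at least 50% of the shorter site for every pair, 5104 with 3 summits within 100 bp, 7159 with sites widened by 250 bp, 6548 with a base common to all 3, 6609 with sites wider than 60 bp, 5036 with lists of equal length and 6666 with touching sites counted as overlapping. It was 2977 with only sites above their list's median score, which by construction leaves fewer sites. That setting gave a median summit span of 63 bp, a share on X of 0.773% against 1.11%, and a share with another triple region within 10 kb of 9.47% against 15.5%. The same share within 50 kb was 46.4%, and the 50% overlap gave a span of 61 bp. With summits over 50 bp apart, the middle share was 39.2% for Insm1 and 24.0% for Foxa2. With site widths within 10% it was 33.9% for Neurod1 and 28.6% for Foxa2. With lists of equal length the highest percentile was that of Insm1 in 30.4%, Neurod1 in 32.1% and Foxa2 in 37.5% of regions, and the lowest that of Neurod1 in 33.3% and Foxa2 in 35.6%. These 3 settings, and that of touching sites, were chosen after seeing the data. The remaining moved values were rank correlations of Insm1 and Neurod1, 0.49 in the narrowest and 0.54 in the widest tercile of regions. No paired analysis was possible because each group has 1 sample.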

Other observations

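The strengths of neighbouring triple regions were nearly unrelated. For 546 adjacent pairs at most 10 kb apart, the rank correlation of mean percentiles was -0.01, and it was 0.01 for 1333 pairs 10 to 50 kb apart and -0.02 for 4766 pairs farther apart. By factor, the closest pairs gave 0.01 for Insm1, 0.05 for Neurod1 and 0.08 for Foxa2. These pairs share the 3 libraries, and values this near 0 are given as a description.

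The rank correlation of Insm1 and Neurod1 was 0.51 in triple regions and 0.30 in regions with that pair, and that of Insm1 and Foxa2 was 0.34 in triple regions and 0.12 in regions with that pair. For Neurod1 and Foxa2 the values were 0.25 in triple regions and 0.16 in regions with that pair. With the remaining factor held constant, the values in triple regions were 0.47 for Insm1 and Neurod1 and 0.26 for Insm1 and Foxa2. For Neurod1 and Foxa2 the value was 0.09. Pair regions have no remaining factor, so these values have no counterpart there. Score ranges differ between these classes, and the part of range in the correlations was not tested.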
